A study of Homo sapiens with 8 samples.

Results

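MHC class I molecules carry short peptides from the inside of a cell to its surface, where cytotoxic T cells and natural killer cells read them. A class I molecule is a heavy chain paired with beta-2-microglobulin. Proteasomes cut proteins into peptides, the TAP transporter carries these into the endoplasmic reticulum, tapasin holds the empty heavy chain beside the transporter, and aminopeptidases trim the peptides to length. NLRC5 is the transactivator that many class I genes share, interferons raise the pathway, and carcinomas often express it at a reduced level.

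The 9 genes described here are the heavy chains HLA-B, HLA-C and HLA-E, the light chain B2M, the transporter subunits TAP1 and TAP2, tapasin (TAPBP), the aminopeptidase ERAP1, and NLRC5. They were found through the RefSeq accessions that the expression table gives for each locus, among 26615 genes with a row. The members had 44 of the 27757 rows, because the table lists chromosome 6 together with 7 alternative haplotype contigs, which are other versions of the same MHC region.

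The libraries came from OVISE cells, an established human line of ovarian clear cell carcinoma, sequenced as paired-end RNA-seq. The 4 groups of 2 libraries each were SYK-KO cells treated with EGF, untreated SYK-KO cells, SYK-WT cells treated with EGF, and untreated SYK-WT cells. EGF was given at 50 ng/ml for 24 h, and the series asks how the tyrosine kinase SYK shapes the transcriptome that depends on the EGF receptor. The knockout cells had been made with a Cas9 nickase and a pair of guides to exon 2 of SYK, with puromycin selection and outgrowth of single cells, and the loss of the protein had been checked by immunoblot. The labels leave unsaid how many clones were used, whether the SYK-WT cells had passed through the same steps, and whether replicate libraries were grown apart. The p-values below then reflect no more than library-to-library spread, possibly technical, and differences between clones cannot be told apart from the genotype.

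Values are FPKM as the authors computed them, which divide fragments by transcript length and library depth, so levels can be compared between genes. Fold changes were taken on the log2(FPKM + 1) scale, which understates the change of low genes. A locus was tested if it had at least 1 FPKM in at least 2 libraries, and a change was called at a limma adjusted p under 0.05 over all 12112 loci tested. The estimated depth was 22800000 to 26900000 fragments per library, if FPKM had been scaled by each library's own fragments. The 2 SYK-WT libraries differed more from each other than the pairs of the other groups did, with a median absolute log2 difference of 0.15, against 0.0669 in SYK-KO, 0.0709 in SYK-WT EGF and 0.0828 in SYK-KO EGF. SYK itself was at 3.11 and 3.43 FPKM in SYK-KO and at 4.91 and 5.30 FPKM in SYK-WT, a log2 fold change of -0.52 ± 0.0861 (SE; limma adjusted p = 0.00289). With EGF, SYK was at 2.80 and 3.16 FPKM in SYK-KO, against 3.88 and 3.62 FPKM in SYK-WT, and the log2 fold change, -0.26 (limma adjusted p = 0.0436), was no longer called without any 1 of 6 libraries. The transcript was thus lower and still present in SYK-KO, and FPKM of the whole gene reads neither the edit nor the protein.

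All 10 epithelial and tumour markers reached 1 FPKM in at least 2 libraries. Among them were EPCAM at 465 to 564 FPKM and the Muellerian lineage factor PAX8 at 148 to 234 FPKM. The markers named are examples, and the levels of the others were not all alike in both genotypes. Leukocytes carry class I at high levels, so their markers were read beside the members. Of 13 leukocyte markers, CD3D, CD2 and MS4A1 were listed at 0 in every library and the pan-leukocyte gene PTPRC did not exceed 0.0216 FPKM. LAPTM5 was the exception, at 2.78 to 6.03 FPKM. The summed level of the 13 markers was 6.66 to 7.81 FPKM in SYK-KO EGF, 3.69 to 4.11 in SYK-KO, 6.68 to 7.03 in SYK-WT EGF and 5.60 to 6.08 in SYK-WT, so it was not higher in untreated SYK-KO. Of 7 fibroblast and endothelial markers, COL3A1 and DCN were listed at 0, and the summed level was 0.441 to 0.534 FPKM in SYK-KO EGF, 0.358 to 0.403 in SYK-KO, 0.149 to 0.223 in SYK-WT EGF and 0.256 to 0.380 in SYK-WT. The part of these low levels in the results was not tested.

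The promoters of HLA-B and HLA-C, the 2 member heavy chains with rows called between the genotypes, and of B2M, which was not called between them, are shown first. They are RefSeq windows of GRCh38.p14 that run from 250 bases before the transcription start to 50 after it, at chr6:31357130-31357429 (minus strand) for HLA-B, chr6:31272043-31272342 (minus strand) for HLA-C and chr15:44711267-44711566 (plus strand) for B2M. Capitals mark matches on either strand to the interferon-stimulated response element (GAAA, 2 bases of any kind, GAAA), to TGACG (the core of the X2 box bound by CREB and ATF factors), to CCAAT (the Y box bound by NF-Y), to an NF-kappaB site, and to GAANNGAAA, a shorter form of the interferon element that was added after the windows had been seen.
HLA-B: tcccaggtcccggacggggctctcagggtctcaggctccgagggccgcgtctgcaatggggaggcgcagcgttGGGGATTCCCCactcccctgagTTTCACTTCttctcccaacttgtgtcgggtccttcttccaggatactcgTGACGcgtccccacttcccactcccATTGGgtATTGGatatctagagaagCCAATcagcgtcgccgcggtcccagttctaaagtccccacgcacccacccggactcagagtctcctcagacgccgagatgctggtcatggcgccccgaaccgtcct
HLA-C: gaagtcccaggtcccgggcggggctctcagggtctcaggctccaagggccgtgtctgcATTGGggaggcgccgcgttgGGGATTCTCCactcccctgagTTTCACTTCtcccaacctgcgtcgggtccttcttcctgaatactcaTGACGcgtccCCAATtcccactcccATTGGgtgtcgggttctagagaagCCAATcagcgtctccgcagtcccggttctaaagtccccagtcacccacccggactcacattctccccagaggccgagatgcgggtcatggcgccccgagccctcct
B2M: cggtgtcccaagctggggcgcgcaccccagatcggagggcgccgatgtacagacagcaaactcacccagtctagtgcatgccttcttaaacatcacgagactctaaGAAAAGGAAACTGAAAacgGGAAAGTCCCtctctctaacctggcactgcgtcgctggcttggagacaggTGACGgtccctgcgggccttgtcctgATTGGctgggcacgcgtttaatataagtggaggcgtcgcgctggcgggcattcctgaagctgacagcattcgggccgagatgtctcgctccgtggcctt

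Positions are counted from the transcription start, with negative numbers before it. In HLA-B the overlapping NF-kappaB matches began at -177, the short interferon element at -155, TGACG at -106 and the 3 CCAAT matches at -81, -74 and -56. In HLA-C the NF-kappaB match began at -172, the short interferon element at -151, TGACG at -105 and the 4 CCAAT matches at -192, -95, -80 and -56. B2M held 2 overlapping matches to the full interferon element, beginning at -144 and -138, an NF-kappaB match at -125, TGACG at -75 and CCAAT at -49. A window was found for 7 of the 9 members, TAP1 and ERAP1 having 2 each, so there were 9 windows. The full interferon element was in the windows of 5 of these 7 genes (B2M, TAP1, TAP2, TAPBP and ERAP1) and in 3.57% of all 35116 windows in the table. TGACG was in 4 of the 7 genes and 24.6% of all windows, CCAAT in 5 and 34.6%, the NF-kappaB match in 6 and 11.3%, and GAANNGAAA in 4 and 7.66%. These are matches of letters in a window and describe the sequence only.

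Where the class I rows stood in the table sets what can be said of each gene. Of the 44 rows, 28 were listed at exactly 0 in all 8 libraries and 10, of 5 genes, passed the filter. HLA-E, whose product displays signal peptides of other class I chains to natural killer cells, was listed at 0 on all 7 of its contigs, including chr6:30457183-30461982 (hg19). TAP1 was listed at 0 on 7 of 8 contigs and did not exceed 0.111 FPKM on the last, TAP2 was at 0 on 7 of 8, and TAPBP was at 0 on 4 of 5. The listing was shared by the neighbourhood: of 160 coding rows of chromosome 6 whose gene also has a row on a haplotype contig, 138 (86.25%) were at 0 in every library, against 13.3% of 18763 other coding rows on the main chromosomes. RPS18, a ribosomal protein gene of the region that every cell uses, chosen after its values were seen, was at 0 on 5 of its 6 rows and did not exceed 0.288 FPKM on the other. An exact 0 of HLA-E, TAP1, TAP2 or TAPBP is therefore given as a listing and not as a level of expression, and no fold change was taken against it.

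**Figure D1:**
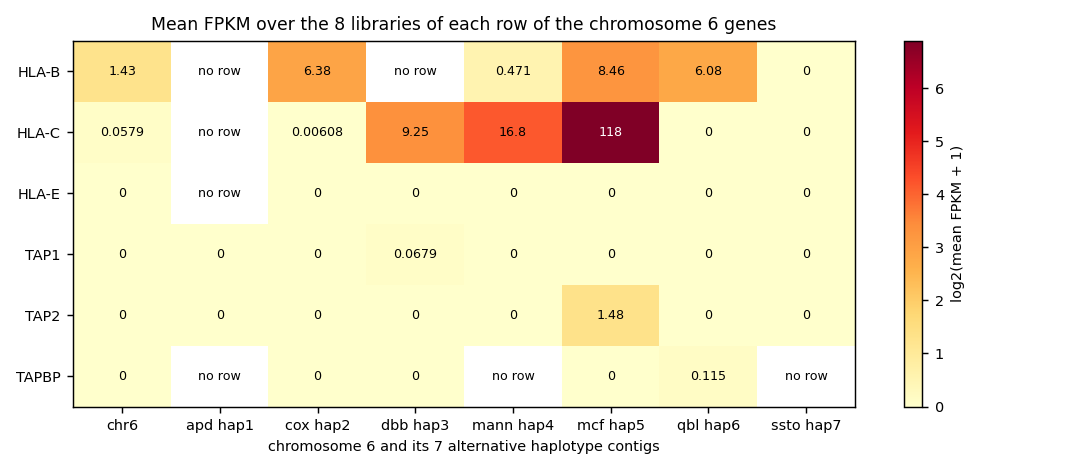
Mean FPKM over the 8 libraries of every row of the 6 members on chromosome 6, by gene (rows) and contig (columns), with the colour on a log2(mean FPKM + 1) scale. Most cells are listed at 0, HLA-E has none above 0, and the HLA-C row of the mcf contig, at a mean of 118 FPKM, stands above all others.

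The contig that held the fragments differed between genes. HLA-B was above 0 on 5 of 6 contigs, with means of 6.08 to 8.46 FPKM on the cox, qbl and mcf contigs and 1.43 FPKM on chromosome 6 itself. HLA-C was at a mean of 118 FPKM on the mcf contig, 16.8 on mann and 9.25 on dbb, and 0.0579 on chromosome 6. TAP2 was above 0 only on the mcf contig, at 1.14 to 1.81 FPKM. How fragments of these polymorphic genes were shared among near-identical contigs is not given in the sources used here, so single rows are uncertain and rows of a gene are not independent of each other. On the mann contig, the rows of HLA-B and HLA-C also have the same coordinates, 2514258 to 2821820, as do those of the qbl contig, 2461380 to 2772598.

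Summed over their rows, a step added after the data had been seen, B2M (chr15:45003685-45010357, hg19) was listed at 410 to 470 FPKM, HLA-C at 119 to 160.4, HLA-B at 13.5 to 32.6, ERAP1 (chr5:95997741-96149848) at 4.61 to 8.32 and NLRC5 (chr16:57023397-57117436) at 0.143 to 0.702. No neighbouring pair of these 5 genes overlapped in listed values over the 8 libraries. The sums of HLA-B and HLA-C also hold rows at 0 in the region described above. What share of their fragments these sums hold is not known. Their place is therefore an order of listed values and not of expression levels. The remaining genes were given no place in that order, since nearly all their rows were at 0. Of these, TAP2 was listed at 1.14 to 1.81 FPKM and TAP1 at 0.0269 to 0.111, each on a single row, and TAPBP at 0.0241 to 0.218 FPKM on a row merged with ZBTB22.

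HLA-B was higher in SYK-KO than in SYK-WT on every tested row. On the qbl contig it was at 7.53 and 8.41 FPKM in SYK-KO, against 3.08 and 2.84 FPKM in SYK-WT. On the cox contig the values were 7.99 and 8.08 FPKM in SYK-KO and 3.69 and 3.97 FPKM in SYK-WT. No SYK-KO value overlapped a SYK-WT value on either row. The share of all loci that separate in this way was not counted, and 40.5% of loci tested were called in this contrast. The qbl row rose by 1.18 ± 0.0988 on the log2 scale (SE; limma adjusted p = 0.000145) and the cox row by 0.90 ± 0.0699 (limma adjusted p = 0.000104), while the median over all loci tested was -0.01. In bulk RNA, fewer expressing cells and less RNA per cell cannot be told apart, and this holds for every difference below.

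The mcf row of HLA-B was at 10.7 and 9.33 FPKM in SYK-KO and 5.84 and 5.94 FPKM in SYK-WT, a rise of 0.67 ± 0.0981 (SE; limma adjusted p = 0.00156). The row on chromosome 6 proper (chr6:31321643-31325022) was at 2.48 and 1.96 FPKM in SYK-KO and 0.473 and 0.310 FPKM in SYK-WT. It passed the filter only through the SYK-KO libraries, so its call had to come out as a difference, and its log2 fold change of 1.21 became 2.25 with a pseudocount of 0.1 FPKM. The fifth row, on the mann contig, was under the filter, at 0.481 and 0.401 FPKM in SYK-KO and 0.520 and 0.413 FPKM in SYK-WT, and the groups overlapped. Summed over its rows, HLA-B averaged 28.7 ± 0.712 FPKM in SYK-KO and 13.5 ± 0.0929 FPKM in SYK-WT (SD, n = 2 each), 2.12-fold higher, and the log2 fold change was 1.03 ± 0.0761 (SE; limma adjusted p = 8.12e-05). In the fit of summed rows 40.4% of loci were called in this contrast.

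HLA-C was higher in SYK-KO on 1 of its 3 tested rows. On the mcf contig it was at 126 and 130 FPKM in SYK-KO, against 97.3 and 99.0 FPKM in SYK-WT, a rise of 0.38 ± 0.0617 on the log2 scale (SE; limma adjusted p = 0.00255). On the mann contig it was at 14.8 and 16.4 FPKM in SYK-KO and 14.4 and 18.4 FPKM in SYK-WT, and on the dbb contig at 8.93 and 8.62 FPKM in SYK-KO and 7.69 and 9.42 FPKM in SYK-WT. Both of these overlapped between the genotypes, and the limma adjusted p was 0.657 for the mann row and 0.798 for the dbb row. The sum of the rows was 1.24-fold higher in SYK-KO, with a log2 fold change of 0.31 ± 0.0651 (SE; limma adjusted p = 0.00806), and was not called without SYK-KO replicate 2 (limma adjusted p = 0.0592).

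B2M, the light chain that every class I molecule needs, was at 469 and 465 FPKM in SYK-KO and 470 and 444 FPKM in SYK-WT. The groups overlapped, and the log2 fold change was 0.03 ± 0.0656 (SE; limma adjusted p = 0.728). TAP2, a subunit of the peptide transporter, was at 1.24 and 1.39 FPKM in SYK-KO and 1.81 and 1.78 FPKM in SYK-WT. It was the one member row called lower in SYK-KO, with a log2 fold change of -0.28 ± 0.0863 (SE; limma adjusted p = 0.0358). That call ended without any 1 of the untreated libraries or of the SYK-WT EGF libraries, with adjusted p up to 0.194 and log2 fold changes of -0.23 to -0.32.

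ERAP1, which trims peptides in the endoplasmic reticulum, was at 6.86 and 8.32 FPKM in SYK-KO and 6.13 and 5.33 FPKM in SYK-WT. It rose by 0.35 ± 0.114 on the log2 scale (SE; limma adjusted p = 0.0414). The call ended without SYK-KO replicate 2 (log2 fold change 0.23, limma adjusted p = 0.243), without SYK-WT replicate 2 (0.26, limma adjusted p = 0.113) and without either SYK-WT EGF library (limma adjusted p = 0.0669 and 0.0671). In all, 6 of the 10 tested member rows were called higher in untreated SYK-KO and 1 lower. Over all loci tested, 40.5% were called in this comparison, 20.3% higher and 20.2% lower in SYK-KO. Of the 6 rows called higher, 4 were rows of HLA-B, so the count is not one of 6 genes. The 6 also include the HLA-B row on chromosome 6 proper, which passed the filter only through SYK-KO libraries and had to come out as a difference.

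NLRC5, which acts on class I promoters through factors at the X and Y boxes, some of whose letters are marked in the sequences above, was under the filter. It was at 0.363 and 0.408 FPKM in SYK-KO, against 0.200 and 0.144 FPKM in SYK-WT. These values correspond to an estimated 64 and 74 fragments in SYK-KO and 36 and 24 in SYK-WT. The genotypes did not overlap, and the share of all loci that separate in this way was not counted. In a fit added after the data had been seen, without the filter and with a pseudocount of 0.1 FPKM over 19671 loci, NLRC5 rose by 0.84 ± 0.187 on the log2 scale (SE; limma adjusted p = 0.0205), where 24.7% of loci were called. With a pseudocount of 1 FPKM the log2 fold change was 0.24 (limma adjusted p = 0.0141). The call ended without SYK-KO replicate 1 (0.91, limma adjusted p = 0.0736) and without SYK-KO replicate 2 (0.78, limma adjusted p = 0.0918).

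**Figure D2:**
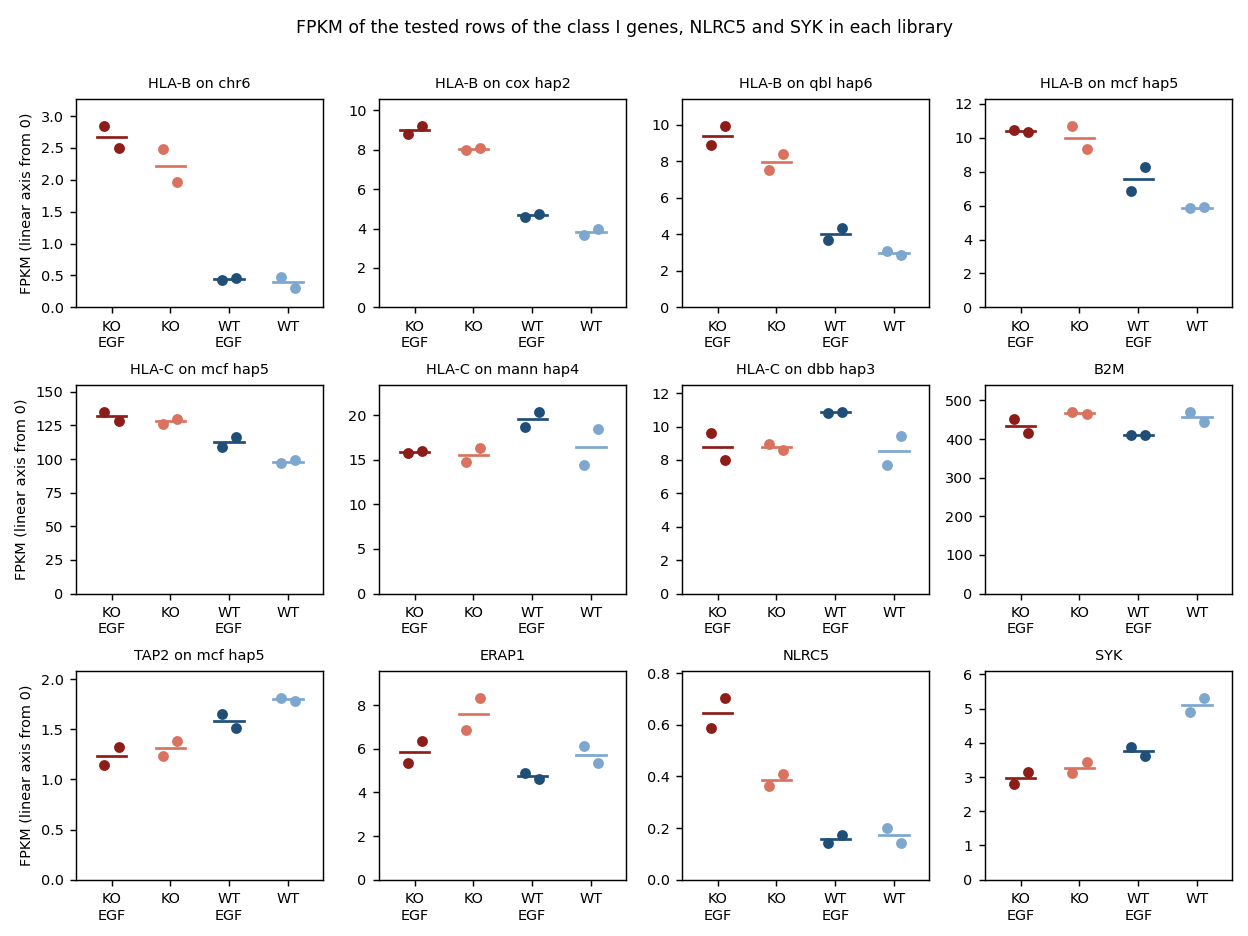
FPKM (y axis, linear and from 0) of the 10 tested member rows, NLRC5 and SYK in each library, by group (x axis: SYK-KO EGF, SYK-KO, SYK-WT EGF, SYK-WT); points are libraries and bars their mean. On the 4 HLA-B panels and for NLRC5 every SYK-KO point lies above every SYK-WT point, whereas the B2M points of all groups lie between 410 and 470 FPKM. The HLA-B row on chromosome 6 passed the filter only through SYK-KO libraries. The share of all loci that separate in this way was not counted. Of all loci tested, 40.5% were called between the untreated genotypes and 43.6% under EGF.

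The same contrast was made in EGF-treated cells, with libraries that the untreated contrast does not use, although both were fitted with a shared estimate of the spread. With EGF, 5 of the 10 member rows were called higher in SYK-KO and none lower, against 43.6% of all loci tested, 21.1% higher and 22.5% lower. The 5 include the HLA-B row on chromosome 6 proper, which passed the filter only through SYK-KO libraries. HLA-B on the qbl contig was at 8.87 and 9.93 FPKM in SYK-KO EGF and 3.66 and 4.34 FPKM in SYK-WT EGF, a rise of 1.06 ± 0.0988 (SE; limma adjusted p = 0.000224). On the cox contig it was at 8.79 and 9.22 FPKM in SYK-KO EGF and 4.61 and 4.73 FPKM in SYK-WT EGF, a rise of 0.82 ± 0.0699 (limma adjusted p = 0.000152). The groups did not overlap on these rows, and the share of all loci that separate in this way was not counted.

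On chromosome 6 proper HLA-B was at 2.85 and 2.50 FPKM in SYK-KO EGF and 0.428 and 0.465 FPKM in SYK-WT EGF, and its log2 fold change of 1.34 again came from a row that only SYK-KO carried over the filter and became 2.34 with a pseudocount of 0.1 FPKM. On the mcf contig HLA-B was at 10.4 FPKM in both SYK-KO EGF libraries and at 6.84 and 8.27 FPKM in SYK-WT EGF, a rise of 0.42 ± 0.0981 (SE; limma adjusted p = 0.0111). HLA-C on the mcf contig was at 135 and 129 FPKM in SYK-KO EGF and 109 and 116 FPKM in SYK-WT EGF, a rise of 0.22 ± 0.0617 (SE; limma adjusted p = 0.021). Both mcf calls ended without SYK-WT EGF replicate 1, SYK-KO EGF replicate 1 or SYK-KO EGF replicate 2, where the HLA-B row had log2 fold changes of 0.30, 0.41 and 0.42 and limma adjusted p of 0.0797, 0.0604 and 0.0536. For the HLA-C row the log2 fold changes were then 0.18, 0.19 and 0.26, with limma adjusted p of 0.144, 0.122 and 0.0536.

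The other 2 HLA-C rows had the opposite sign under EGF. The mann row was at 15.7 and 16.0 FPKM in SYK-KO EGF and 18.7 and 20.4 FPKM in SYK-WT EGF, and the dbb row at 9.62 and 7.99 FPKM in SYK-KO EGF and 10.8 and 10.9 FPKM in SYK-WT EGF. Their log2 fold change was -0.28 in both, which was not called (limma adjusted p = 0.0729 for mann and 0.0722 for dbb). Both rows were called lower in SYK-KO EGF in the fit of only the 2 groups (limma adjusted p = 0.0099 for mann and 0.0355 for dbb), with library quality weights (0.0144 and 0.0189), without SYK-WT replicate 1 (0.00829 and 0.0207) and without SYK-WT replicate 2 (0.00839 and 0.0208). The mann row was also called with the replicate block (limma adjusted p = 0.0291). Summed over its rows, HLA-C averaged 157 ± 5.44 FPKM in SYK-KO EGF and 143 ± 6.56 FPKM in SYK-WT EGF (SD, n = 2 each), with a log2 fold change of 0.13 that was not called (limma adjusted p = 0.144). HLA-B summed averaged 32 ± 0.903 FPKM in SYK-KO EGF and 17.1 ± 1.66 FPKM in SYK-WT EGF (SD, n = 2 each), with a log2 fold change of 0.87 ± 0.0761 (SE; limma adjusted p = 0.000171).

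B2M, TAP2 and ERAP1 were not called between the genotypes under EGF. B2M was at 452 and 415 FPKM in SYK-KO EGF and 410 and 410 FPKM in SYK-WT EGF (log2 fold change 0.08, limma adjusted p = 0.365). TAP2 was at 1.14 and 1.33 FPKM in SYK-KO EGF and 1.66 and 1.52 FPKM in SYK-WT EGF (-0.21, limma adjusted p = 0.0802). ERAP1 was at 5.36 and 6.34 FPKM in SYK-KO EGF and 4.90 and 4.61 FPKM in SYK-WT EGF (0.25, limma adjusted p = 0.113).

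NLRC5 was at 0.589 and 0.702 FPKM in SYK-KO EGF, against 0.143 and 0.172 FPKM in SYK-WT EGF, an estimated 90 and 121 fragments against 26 and 28. Its mean was 4.11-fold higher in SYK-KO EGF, and in the fit without the filter and with a pseudocount of 0.1 FPKM it rose by 1.53 ± 0.187 on the log2 scale (SE; limma adjusted p = 0.00254), where 26.6% of loci were called. With a pseudocount of 1 FPKM the log2 fold change was 0.51 (limma adjusted p = 0.00143). It was also called with each of the 8 libraries left out in turn, with limma adjusted p up to 0.0277. TAP1 on its dbb row was at 0.102 and 0.0772 FPKM in SYK-KO EGF and 0.0372 and 0.0404 FPKM in SYK-WT EGF, which is an estimated 7 and 6 fragments against 3 and 3, and was not called in that fit (limma adjusted p = 0.137). Its untreated values were 0.0753 and 0.111 FPKM in SYK-KO and 0.0741 and 0.0269 FPKM in SYK-WT (limma adjusted p = 0.212). The other 7 TAP1 rows were at 0, and whether depth or the handling of the contigs limits this row was not tested.

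The effect of EGF was tested within each genotype. In SYK-WT cells 3 of the 10 rows were called higher with EGF and none lower, where 26.7% of all loci tested were called, 14.7% higher and 12.1% lower. These were HLA-B on the qbl contig (log2 fold change 0.33 ± 0.0988, SE; limma adjusted p = 0.0406), HLA-B on the cox contig (0.23 ± 0.0699, limma adjusted p = 0.0439) and HLA-C on the mcf contig (0.20 ± 0.0617, limma adjusted p = 0.0496). All 3 stood close to the threshold: the qbl and cox calls ended in 11 of 18 alternative fits and the HLA-C call in 13 of 18, with limma adjusted p up to 0.234, 0.195 and 0.268. Either SYK-WT EGF library, either SYK-KO library or either SYK-KO EGF library was enough to end each of them, with log2 fold changes over all alternatives of 0.24 to 0.43 for qbl, 0.19 to 0.28 for cox and 0.15 to 0.24 for HLA-C. SYK-WT replicate 1 also ended the cox and HLA-C calls, and SYK-WT replicate 2 the qbl and HLA-C calls.

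Summed over its rows, HLA-B rose by 0.31 ± 0.0761 with EGF in SYK-WT cells (SE; limma adjusted p = 0.0205, where 26.8% of loci were called), and this was not called without SYK-WT EGF replicate 2 (0.22, limma adjusted p = 0.14). The mcf row of HLA-B had a log2 fold change of 0.31 with EGF in SYK-WT cells (limma adjusted p = 0.0521), and the HLA-B row on chromosome 6 proper one of 0.06 (limma adjusted p = 0.725). The HLA-C rows on dbb and mann were at 0.32 and 0.24 (limma adjusted p = 0.0676 and 0.142), and both were called without SYK-WT replicate 2 (0.45 and 0.41, limma adjusted p = 0.0147 and 0.00939). B2M was at -0.16 on that scale (limma adjusted p = 0.116), ERAP1 -0.22 (limma adjusted p = 0.183) and TAP2 -0.11 (limma adjusted p = 0.361). NLRC5 overlapped between SYK-WT EGF and SYK-WT (log2 fold change -0.07, limma adjusted p = 0.855 in the fit without the filter, where 13.5% of loci were called, 7.5% higher and 5.98% lower).

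In SYK-KO cells none of the 10 rows was called with EGF, where 11.8% of all loci tested were called, 6.67% higher and 5.13% lower. The 4 HLA-B rows had log2 fold changes of 0.05 to 0.21, the 3 HLA-C rows -0.00141 to 0.04, B2M -0.11, TAP2 -0.05 and ERAP1 -0.32, with limma adjusted p of 0.11 to 0.997. NLRC5 was higher in SYK-KO EGF than in SYK-KO in both libraries, with a log2 fold change of 0.62 ± 0.187 that was not called without the filter and with a pseudocount of 0.1 FPKM (SE; limma adjusted p = 0.124), where 5.5% of loci were called, 3.24% higher and 2.26% lower. With a pseudocount of 1 FPKM and no filter it was 0.25 and was called (limma adjusted p = 0.0365). These 4 contrasts share libraries: each group enters a genotype contrast and an EGF contrast.

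**Figure D3:**
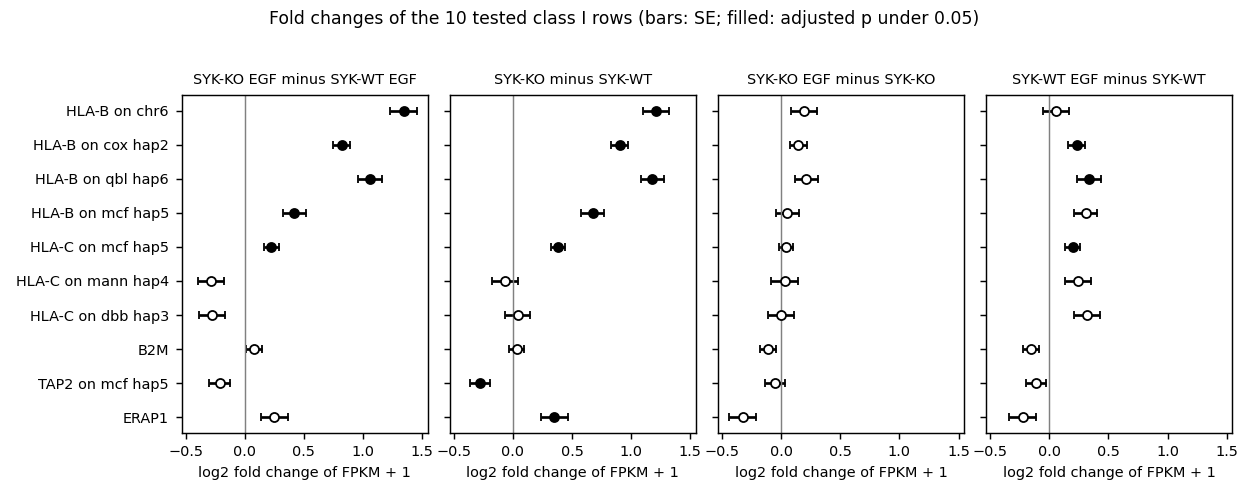
Log2 fold changes of FPKM + 1 (x axis) of the 10 tested member rows in the 2 genotype contrasts and the 2 EGF contrasts; bars are standard errors and filled points were called. The 4 HLA-B rows are right of 0 in both genotype contrasts, at 0.42 to 1.34, and no row is filled for EGF in SYK-KO cells. The value of 1.34 belongs to the HLA-B row on chromosome 6, which passed the filter only through SYK-KO libraries.

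The difference between the EGF responses, SYK-KO minus SYK-WT, was tested directly. It was called for none of the 10 member rows with limma at an adjusted p under 0.05, where 1 locus of 12112 (0.00826%) was called, and the smallest unadjusted limma p among the 10 rows was 0.0752. The values were -0.26 ± 0.139 for HLA-B on the mcf contig, -0.12 ± 0.14 on qbl, -0.08 ± 0.0988 on cox and 0.13 ± 0.157 on chromosome 6 (SE). HLA-C had -0.32 ± 0.155 on dbb, the row with the smallest p, -0.22 ± 0.158 on mann and -0.16 ± 0.0873 on mcf. B2M had 0.05 ± 0.0927, ERAP1 -0.10 ± 0.161 and TAP2 0.06 ± 0.122. For NLRC5 in the fit without the filter it was 0.69 ± 0.264 (SE; limma unadjusted p = 0.0369, adjusted p = 0.605), where 0.0102% of loci were called. That EGF was followed by called HLA-B rows in SYK-WT and by none in SYK-KO is therefore not shown to be a difference between the genotypes.

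Among the authors' deposited table of comparisons, the q-values for SYK-KO against SYK-WT were 0.000583 for HLA-B on chromosome 6, cox and qbl, 0.00108 for HLA-B on mcf, 0.0583 for HLA-C on mcf, 0.00355 for NLRC5, 0.58 for ERAP1, 0.181 for TAP2 and 0.934 for B2M. Of the loci tested here, 21.5% had a q-value under 0.05 for that comparison in the authors' deposited table and 24.0% for the one under EGF. The authors' deposited table gave 0.000583 for HLA-B on chromosome 6, cox and qbl and for NLRC5 under EGF. On mcf under EGF, the deposited q-values were 0.0625 for HLA-B and 0.338 for HLA-C. For EGF in SYK-WT cells the authors' deposited table had no member row under 0.05, where 15.2% of loci were.

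The rest of the pathway was read from 9 lists of 86 genes. Among further class I genes and class I-like molecules, HLA-F and HLA-G were listed at 0 on every row and CD1D did not exceed 0.208 FPKM. FCGRT, the heavy chain of the neonatal Fc receptor, which pairs with B2M but binds immunoglobulin G and not peptides, was at 11.6 and 11.5 FPKM in SYK-KO, against 35.6 and 37.9 FPKM in SYK-WT. It fell by 1.58 on the log2 scale (limma adjusted p = 7.18e-06), and with EGF it fell to 10.4 and 11.0 FPKM in SYK-KO EGF, against 32.6 and 34.4 FPKM in SYK-WT EGF (log2 fold change -1.56, limma adjusted p = 6.82e-06). HFE, another partner of B2M, which acts in iron uptake and was chosen after its values were seen, was lower at -0.50 on the log2 scale (limma adjusted p = 0.00205) and, with EGF, at -0.41 (limma adjusted p = 0.00467).

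Of the 12 genes of peptide loading and trimming, all tested, 2 were higher and 2 lower in untreated SYK-KO, where 20.3% of all loci were higher and 20.2% lower, and the median log2 fold change was -0.03. TAPBPL, the tapasin-related protein that edits peptides away from the TAP transporter, was at 3.10 and 3.27 FPKM in SYK-KO, against 1.02 and 1.11 FPKM in SYK-WT, a rise of 1.02 (limma adjusted p = 0.00113). With EGF it was at 2.22 and 2.44 FPKM in SYK-KO, against 0.437 and 0.950 FPKM in SYK-WT, a rise of 0.99 (limma adjusted p = 0.00122) that became 1.71 times as large on the log2 scale at its most extreme alternative. GANAB, a glucosidase that trims the glycans of new heavy chains, was at 86.8 and 93.0 FPKM in SYK-KO and 120 and 119 FPKM in SYK-WT, and its log2 fold change was -0.41 (limma adjusted p = 0.00521). UGGT1, which returns misfolded chains to the folding cycle, was lower at -0.32 on the log2 scale (limma adjusted p = 0.0231), a difference not called in 4 of 17 alternatives, among them without SYK-WT replicate 1 (-0.21) or without either SYK-KO library. The chaperone HSPA5 was higher by 0.22 (limma adjusted p = 0.0229), which was not called in 4 of 17 alternatives, among them without either SYK-KO library, with limma adjusted p up to 0.115.

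Of the 6 genes of the immunoproteasome and its activators, PSMB9 was listed at 0 on all 8 rows and PSMB8 on 7 of 8, in the same part of chromosome 6 as TAP1. The 4 others were all called between the genotypes, 2 higher and 2 lower in SYK-KO, where 40.5% of all loci were called in untreated cells and 43.6% under EGF. PSME1 and PSME2, the 2 subunits of the PA28 activator that interferon-gamma induces, were at 339 and 322 FPKM and at 255 and 234 FPKM in SYK-KO, against 269 and 272 FPKM and 195 and 176 FPKM in SYK-WT. They rose by 0.29 and 0.40 on the log2 scale (limma adjusted p = 0.0089 and 0.00596), PSME2 on a row that also holds MIR7703. Both calls ended without SYK-KO replicate 1, with limma adjusted p of 0.0762 and 0.0541. PSME3, the nuclear activator that interferon does not induce, was at 36.0 and 38.3 FPKM in SYK-KO and 48.7 and 45.6 FPKM in SYK-WT, and its log2 fold change was -0.34 (limma adjusted p = 0.0074, and 0.0668 without SYK-KO replicate 1). PSMB10, the third inducible catalytic subunit, lies outside the MHC and had one of -0.20 (limma adjusted p = 0.0379) that ended in 11 of 17 alternatives, with limma adjusted p up to 0.209. Of the 3 constitutive catalytic subunits, PSMB5 was higher by 0.24 on the log2 scale (limma adjusted p = 0.0189, not called without either SYK-KO library). PSMB7 and PSMB6 were not called, at 0.15 and 0.12.

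The partners and regulators of NLRC5 held 13 genes, of which CIITA, the class II transactivator, did not exceed 0.0154 FPKM. Of the 11 tested, 3 were higher and 2 lower in untreated SYK-KO, against 40.5% of all loci called in either direction, and the median log2 fold change was -0.01. RFXANK, a subunit of the RFX complex that binds the X1 box, was at 37.8 and 36.2 FPKM in SYK-KO and 27.3 and 26.9 FPKM in SYK-WT, a rise of 0.43 (limma adjusted p = 0.00324). The others called were NFYB (0.27, limma adjusted p = 0.0462) and IRF2 (0.28, limma adjusted p = 0.027), which were higher, and CREB1 (-0.68, limma adjusted p = 0.0125) and RFX5 (-0.21, limma adjusted p = 0.0475), which were lower and were chosen after their values were seen. The NFYB call ended in 10 of 16 alternatives, the RFX5 call in 12 of 17, the IRF2 call in 7 of 17 and the CREB1 call without SYK-KO replicate 1 (limma adjusted p = 0.0792). Without SYK-WT replicate 2 CREB1 was still called at -0.45, and without SYK-WT replicate 1 NFYB was at 0.16 and not called. RELA, a subunit of NF-kappaB, had a log2 fold change of -0.01 between the genotypes and rose by 0.32 with EGF in SYK-WT cells (limma adjusted p = 0.0096), which was not called without SYK-WT EGF replicate 2 (limma adjusted p = 0.0825).

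The 14 genes of interferon receptors and signalling were all tested, and 2 were higher and 2 lower in untreated SYK-KO, where 40.5% of all loci were called, with a median log2 fold change of 0.09. With EGF, 7 were higher and 4 lower in SYK-KO, where 43.6% of all loci were called, 21.1% higher and 22.5% lower, and the median was 0.12, against -0.02 over all loci. IFNGR2, a chain of the interferon-gamma receptor, was at 21.0 and 22.1 FPKM in SYK-KO EGF, against 14.4 and 14.6 FPKM in SYK-WT EGF, a rise of 0.55 (limma adjusted p = 0.00101). STAT2, a subunit of the ISGF3 factor of type I interferon, was at 19.8 and 20.1 FPKM in SYK-KO and 29.3 and 27.8 FPKM in SYK-WT, and its log2 fold change was -0.49 (limma adjusted p = 0.00142). STAT3 was lower in SYK-KO under EGF (-0.40, limma adjusted p = 0.00208), and so was its feedback inhibitor SOCS3 (-0.35, limma adjusted p = 0.00262). Receptors and signal transducers of the interferon pathway thus did not share 1 direction.

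In the list of 12 MHC class II genes no row was tested. CD74, the invariant chain, which lies outside the MHC, was at 0, 0, 0.0304 and 0 FPKM in the SYK-KO EGF and SYK-KO libraries, against 0.648, 0.752, 0.774 and 0.693 FPKM in the SYK-WT EGF and SYK-WT libraries, chosen after its values were seen. It was under the filter in every library and was not tested. Its values did not overlap between the genotypes, and the share of all loci that separate in this way was not counted.

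Ligands that natural killer cells read beside class I held 9 genes, of which 5 lay on the 4 loci tested. ULBP1, a ligand of the receptor NKG2D, was at 1.87 and 1.71 FPKM in SYK-KO, against 0.530 and 0.485 FPKM in SYK-WT, a rise of 0.89 (limma adjusted p = 0.000489). Among EGF-treated cells it was higher in SYK-KO EGF than in SYK-WT EGF by 0.68 (limma adjusted p = 0.00156). It passed the filter only through the SYK-KO libraries, and the log2 fold changes became up to 1.84 and 1.67 times as large under the alternatives. ULBP2 followed EGF in both genotypes: it was at 3.99 and 4.05 FPKM in SYK-KO EGF and 1.59 and 1.59 FPKM in SYK-KO, and at 6.26 and 6.60 FPKM in SYK-WT EGF and 2.17 and 2.40 FPKM in SYK-WT. It rose by 0.95 in SYK-KO cells (limma adjusted p = 0.000482) and by 1.18 in SYK-WT cells (limma adjusted p = 0.000104), and was lower in SYK-KO under EGF (-0.57, limma adjusted p = 0.00102). ULBP3 rose by 0.42 with EGF in SYK-WT cells (limma adjusted p = 0.0188), which was lost without either SYK-WT EGF library, and the merged row of MICA and MICB was not called in any contrast.

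Among genes of class I turnover, MARCHF4, a membrane ubiquitin ligase able to remove class I from the surface, was at 14.4 and 14.2 FPKM in SYK-WT EGF, against 3.15 and 3.24 FPKM in SYK-WT, a rise of 1.87 (limma adjusted p = 5.16e-05), and at 10.9 and 8.72 FPKM in SYK-KO EGF, against 6.15 and 5.51 FPKM in SYK-KO, a rise of 0.66 (limma adjusted p = 0.00719, and 0.0754 without SYK-KO replicate 2). Between the genotypes it was higher in untreated SYK-KO (0.70, limma adjusted p = 0.0016) and lower in SYK-KO under EGF (-0.51, limma adjusted p = 0.00583), and the difference of its EGF responses was -1.21 (limma adjusted p = 0.0694). The ligase WWP2 was lower in SYK-KO under EGF (-0.42, limma adjusted p = 0.00213). SUSD6, a membrane protein that works with WWP2 in class I turnover, was higher there (0.42, limma adjusted p = 0.00625), but not without SYK-WT EGF replicate 2 (limma adjusted p = 0.0527).

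**Figure D4:**
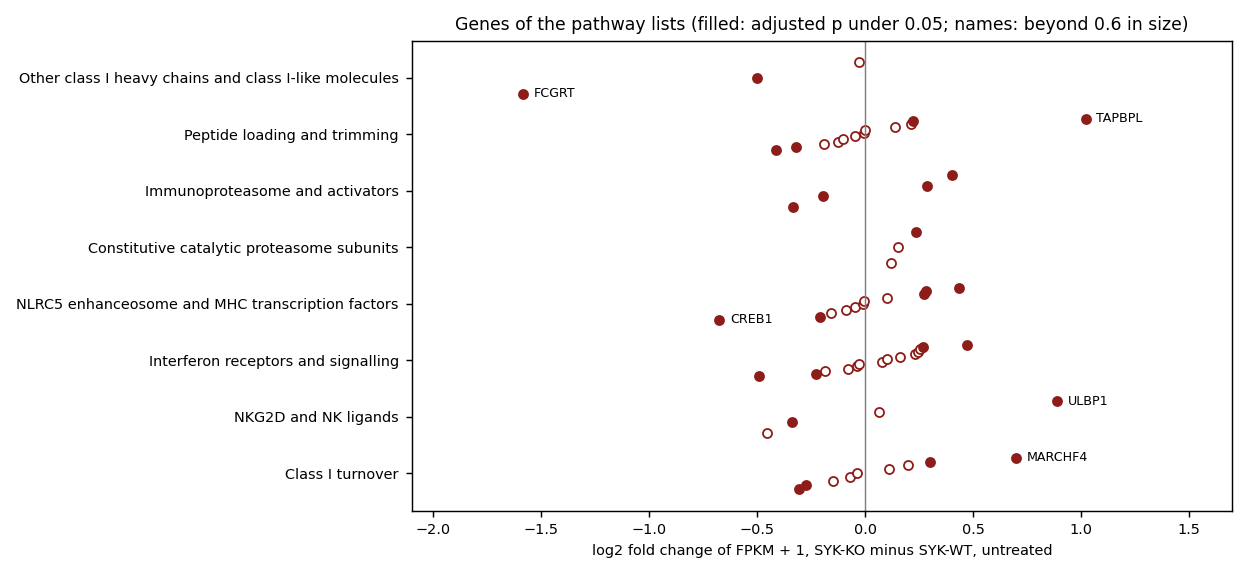
Log2 fold change of FPKM + 1 (x axis), SYK-KO minus SYK-WT in untreated cells, of the tested loci of the pathway lists that are reported here (y axis); each point is a locus, filled where called, and names are given beyond 0.6 in size. TAPBPL and ULBP1 lie furthest to the right, at 1.02 and 0.89, and FCGRT furthest to the left, at -1.58. ULBP1 passed the filter only through SYK-KO libraries, so its side follows from the filter.

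Loci whose profile over the 8 libraries was most like that of a member were found by the root mean square difference of standardised log2(FPKM + 1) values among 8283 loci with a single symbol and at least 5 FPKM in their highest group. Since HLA-B and NLRC5 differ by genotype, the loci nearest to them do too, whereas B2M was not called between the genotypes. The measure is a description. Nearest to HLA-B, taken on its sum over rows, were CC2D1A, RBMX2, CYP2B6, CHCHD3 and SH3KBP1, at differences of 0.0683 to 0.127 SD. CC2D1A was at 46.9 and 47 FPKM in SYK-KO EGF, 44.6 and 42.3 in SYK-KO, 31.1 and 33.4 in SYK-WT EGF and 28.3 and 27.1 in SYK-WT, in the same order of groups as HLA-B. Nearest to NLRC5 were ELOVL3, WDR62, NFIL3, KLHL2 and MEX3C, at 0.175 to 0.237 SD, and ELOVL3 was at 11.8 and 12 FPKM in SYK-KO EGF, 6.92 and 6.03 in SYK-KO, 3.31 and 3.24 in SYK-WT EGF and 3.87 and 3.30 in SYK-WT. Nearest to B2M, at the larger differences of 0.26 to 0.357 SD, were HMGN3, GDF15, B4GALT4, TTC8 and RAB23.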

How the data were processed

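Expression was measured by paired-end RNA-seq in 8 libraries of OVISE cells, 2 in each of 4 groups taken from the sample titles. The authors deposited 1 table of FPKM values, made with TopHat, Cufflinks and Cuffdiff 2.2.1.3 on hg19, per the submitters' processing notes; the labels and headers state no annotation, strand setting or treatment of multiply mapped reads. The q-values used were those of the authors' deposited table of comparisons. Counts were not analysed here, so depth was estimated from the FPKM steps of 1206 low loci. Symbols were matched through RefSeq accessions for 27541 of 27757 loci (99.2%).

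Here limma 3.58.1 (R 4.3.3) was run on log2(FPKM + 1), modelling the trend of variance on mean and 1 mean for each of the 4 groups (4 residual degrees of freedom, 3.87 prior). It covered the 12112 loci that reached 1 FPKM in 2 or more libraries, two-sided, with Benjamini-Hochberg adjustment within a contrast and a threshold of 0.05. The steps were tested on simulated data. Alternatives were pseudocounts of 0.1 and 0.25 FPKM, no filter, a filter of 5 FPKM, equalised medians, only the 2 groups compared, a replicate block, library quality weights, no trend, and each library left out. Fits of summed rows and of unfiltered values with a pseudocount of 0.1 FPKM were added after the data had been seen. Named list genes were up to 4 loci of each list with the smallest adjusted p in any of the 4 simple contrasts. The members and lists were chosen with earlier results of these data known. Tables were handled with pandas 2.3.3 and figures drawn with matplotlib 3.10.9. Some list genes and markers are not reported here.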

Additional observations from a re-analysis of the deposited data

How the results depend on the processing

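Over 70 results on members and 1045 refits, 937 kept their direction and their side of the threshold, 75 lost a call, 18 gained one and 15 changed sign. The HLA-B rows on cox, qbl and mcf in untreated cells, and on cox and qbl under EGF, kept their calls in every alternative run. The HLA-B row on chromosome 6 is left out of that statement, because it passed the filter only through SYK-KO libraries. The 104 results on list genes and SYK, with 1750 refits, were all called in the main fit, so none could gain a call. Among them none changed sign and 307 refits lost a call. The results on members include uncalled ones, so these counts cannot be set beside those of the members. The number of loci called, 4902 for SYK-KO against SYK-WT, became 3007 with only the 2 groups, 2609 by the authors' deposited q-values and 2460 to 5935 without 1 library. Under EGF 5277 became 2911 by the deposited q-values and 2952 to 6835 without 1 library. For EGF in SYK-WT cells 3238 became 1254 with only the 2 groups, 1877 with quality weights, 1843 by the deposited q-values and 1255 to 5108 without 1 library. For EGF in SYK-KO cells 1429 became 2646, 3024 and 319 to 2984 in the fits with only the 2 groups, with weights and without 1 library. For the difference of the EGF responses, 1 locus became 2 without the filter, 2 with weights, 3 without the trend and 0 to 867 without 1 library, the 867 being without SYK-WT replicate 1. With only the 2 groups that difference has no value.

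The sign changes all came from leaving out 1 library, in results that were not called, and the cause was not tested. The log2 fold changes without 1 library ran over -0.027 to 0.14 for HLA-B on chromosome 6 with EGF in SYK-WT cells, and over -0.039 to 0.14 for HLA-B on mcf with EGF in SYK-KO cells. HLA-C on dbb ran over -0.092 to 0.17 between the untreated genotypes and -0.12 to 0.12 with EGF in SYK-KO cells, and HLA-C on mann over -0.23 to 0.099 and -0.041 to 0.098 in the same contrasts. B2M ran over -0.0088 to 0.071 between the untreated genotypes and -0.015 to 0.11 for the difference of responses, TAP2 over -0.11 to 0.011 with EGF in SYK-KO cells, and ERAP1 over -0.22 to 0.021 for the difference. NLRC5 with EGF in SYK-WT cells, without the filter, became 0.075 when SYK-WT replicate 1 was left out and 0.0069 when SYK-WT EGF replicate 1 was.

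Deviations of same-numbered libraries correlated at -0.381 to 0.27 over the 6 pairs of groups. Whether the replicate numbers pair the libraries cannot be told from these values, which take both signs. With the replicate block the counts rose to 5261 and 5688 loci for the untreated and EGF-treated genotype contrasts and to 3624 and 1653 for EGF in SYK-WT and SYK-KO cells. The count for the difference stayed at 1. Precision is limited by 2 libraries in a group, by FPKM in place of counts, by few fragments (estimated at up to 121 for NLRC5 and 9 for TAP1) and, for TAP1 and TAPBP, by rows listed at 0, and these limits were not ranked.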
